A study of Homo sapiens with 4 samples.

Results

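The genes described are 9 transcription factors of myeloid cells and microglia, SPI1, IRF8, RUNX1, CEBPA, CEBPB, MEF2A, MEF2C, SALL1 and MAF, out of 35604 named genes in the tables. They were taken by name from a list, and all 9 had transcripts among those quantified. Messenger RNA was measured by poly-A RNA-seq in iMGL, microglia-like cells differentiated from the human induced pluripotent stem cell line WTC11. Cells named S1KO, in which INPP5D, the gene of the inositol phosphatase SHIP1, had been knocked out, gave 2 libraries, and unedited cells of the same line (WT) gave 2 libraries. According to the design text each genotype is represented by 2 clones, but the labels do not tie a library to a clone, so p-values measure only the spread between these libraries. The cells were made in culture from 1 stem cell line, which limits both genotypes as models of brain microglia.

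Myeloid identity is set by a small network of such factors. PU.1, the ETS factor encoded by SPI1, opens myeloid enhancers and binds many of them together with IRF8. RUNX1 and the C/EBP proteins act with PU.1 during blood cell formation, while SALL1, the MEF2 factors and MAF are associated with the gene programme of microglia and other resident macrophages.

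Total estimated counts were 22792480 and 22334585 in S1KO 1 and S1KO 2, and 21516813 and 25927881 in WT 1 and WT 2. Genes of the mitochondrial genome made up 52.3% and 39.2% of all counts in S1KO, against 14.2% and 18.9% in WT. Fewer counts, 10866559 and 13571447, were therefore left for other genes in S1KO than in WT, at 18461467 and 21028441. INPP5D, which checks the labels, was at 81.0 and 97.6 CPM in S1KO, against 356 and 441 CPM in WT (edgeR log2 fold change -2.16, SE 0.21, adjusted p = 0.0184). All 13 microglia and macrophage markers checked were detected, and their summed level was 2356 and 2455 CPM in S1KO, against 3643 and 3516 CPM in WT. Of the 13, 8 were lower in both S1KO libraries, a pattern found in 25.7% of all genes tested, and 0 were higher in both. The others, AIF1, CD68, GPR34, ITGAM and TMEM119, overlapped between the genotypes. TMEM119, a marker of brain microglia, was at 3.10 and 1.32 CPM in S1KO, against 2.79 and 0.80 CPM in WT. Of 9 granulocyte markers, MPO, ELANE, CTSG and PRTN3, which mark granulocyte precursors, were at 0 in every library. Others were detected: CSF3R was at 144 and 204 CPM in S1KO, against 256 and 251 CPM in WT. The 8 markers other than CSF3R summed to 2.56 and 2.30 CPM in S1KO, against 1.07 and 1.31 CPM in WT. Mesenchymal markers summed to 21.2 and 38.3 CPM in S1KO, against 5241 CPM in WT 1 and 12.9 CPM in WT 2, so WT 1 stood apart from the other libraries. The part of these differences in the results on transcription factors was not tested.

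The order of the factors in WT was set out first, by TPM, which divides by transcript length to allow comparison between genes. A gene's TPM thus also depends on how its reads are divided among long and short transcripts. SPI1 stood far above the rest, at 984 TPM in WT 1 and 1355 TPM in WT 2, which ranked it 112th and 68th of all 35604 named genes. MEF2C (135 and 179 TPM, ranks 850 and 575), IRF8 (150 and 151 TPM, ranks 746 and 691) and CEBPB (85.3 and 182 TPM, ranks 1418 and 561) came next. The WT values of these 3 genes overlapped, so their order was not resolved. The place of MEF2C also depends on short transcripts: MEF2C-219, of 689 bases, held 25.0% and 17.8% of its TPM in WT. In counts MEF2C was below MEF2A in both WT libraries, at ratios of 0.61 and 0.62. MEF2A (98.5 and 97.8 TPM, ranks 1214 and 1144) lay within the range of CEBPB and above CEBPA (71.5 and 68.5 TPM, ranks 1701 and 1667). MAF (54.9 and 32.1 TPM, ranks 2251 and 3524) lay below CEBPA in both WT libraries. RUNX1 was low, at 9.99 and 8.30 TPM (ranks 7589 and 7911). SALL1 was at 0.52 TPM in WT 1 and listed at 0 in WT 2. SALL1 was the only one of the 9 with mean WT expression below 1 TPM.

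**Figure D1:**
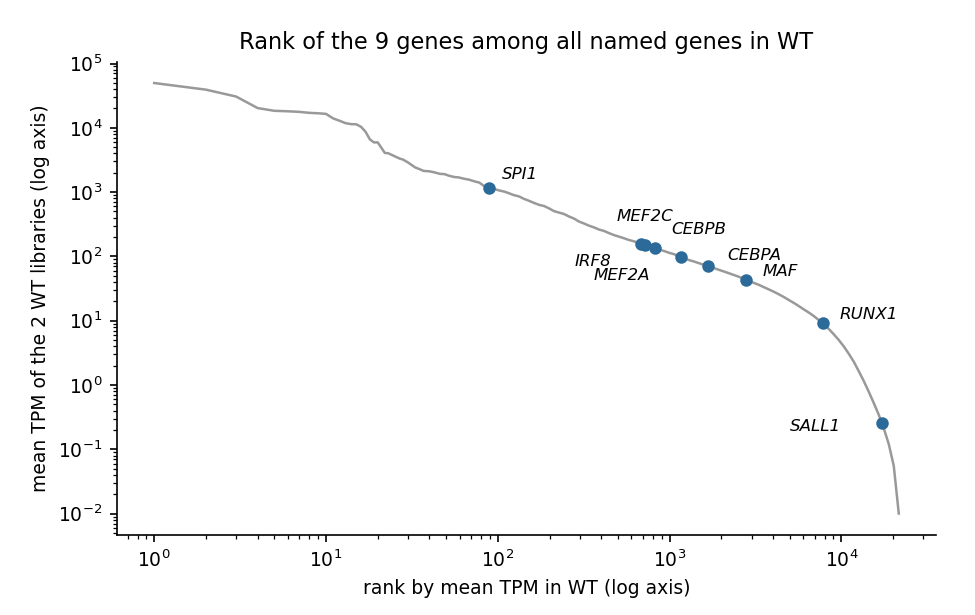
Mean TPM of the 2 WT libraries (y axis, log) against rank among all named genes (x axis, log); the grey line is the whole transcriptome and the points are the 9 factors. SPI1 lies at rank 89 of the mean, 7 factors lie between rank 684 and rank 7795, and SALL1 lies at rank 17168.

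In S1KO, IRF8, RUNX1, CEBPA, CEBPB and MEF2A ranked behind both WT libraries, MEF2C ranked ahead of both, and SPI1 and MAF overlapped with WT. The share of all genes whose ranks did not overlap between the genotypes was not counted, so these ranks only describe the factors. SPI1 ranked 112th in both S1KO libraries, at 370 and 601 TPM. IRF8 ranked 813th and 879th in S1KO, against 746th and 691st in WT. MEF2C ranked 266th and 356th in S1KO, ahead of its WT ranks of 850 and 575, while CEBPB ranked 1962nd and 1916th, behind its WT ranks of 1418 and 561. RUNX1 ranked 8331st and 9509th in S1KO, against 7589th and 7911th in WT. CEBPA ranked 1821st and 2182nd in S1KO, against 1701st and 1667th in WT. MEF2A ranked 1592nd and 1502nd in S1KO, against 1214th and 1144th in WT, and MAF ranked 1895th and 2395th in S1KO, against 2251st and 3524th in WT. Ranks were used here because the TPM total includes the mitochondrial transcripts, which lowers the TPM of other genes in S1KO. The ranks of MEF2C also depend on its short transcripts: MEF2C-219 held 34.8% and 36.4% of its TPM in S1KO, against 25.0% and 17.8% in WT. In TPM, S1KO was below WT without overlap for 71.0% of all genes tested.

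**Figure D2:**
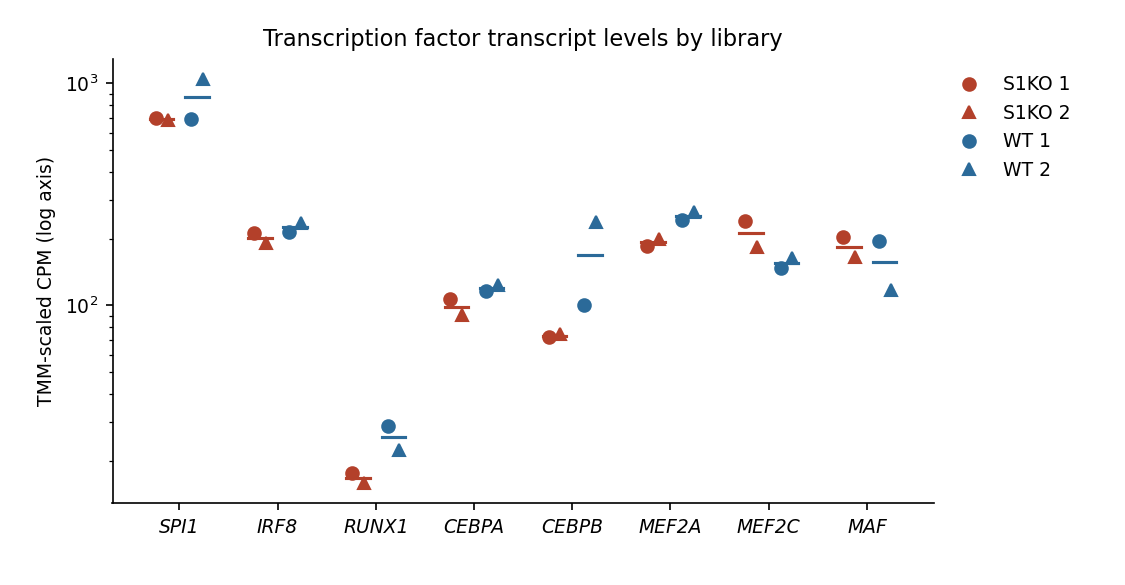
TMM-scaled CPM (y axis, log) of the 8 factors that passed the filter, in each library (circles, library 1; triangles, library 2), with the mean of each genotype as a bar. CEBPB is highest in WT 2 at 238 CPM, and MEF2C is higher in S1KO, without overlap.

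The design asks whether cells without SHIP1 still become microglia-like, and for these factors the genotypes were compared in TMM-scaled CPM, counts scaled to library size with a correction for library make-up. With edgeR (quasi-likelihood, Benjamini-Hochberg adjusted p under 0.05), 0 of the 8 factors tested were called, beside 0.942% of the 15387 genes tested. At an unadjusted p under 0.05 there were 2 of 8, CEBPB and RUNX1, both lower in S1KO, beside 19.5% of all genes in either direction and 9.2% lower in S1KO. DESeq2 called 1 of 8, CEBPB, as lower, beside 7.71% of all genes in either direction and 3.5% lower in S1KO. For 5 of 8 factors, IRF8, RUNX1, CEBPA, CEBPB and MEF2A, S1KO was below WT without overlap, a pattern found in 25.7% of all genes tested. For MEF2C S1KO was above WT without overlap, as for 26% of all genes. The median log2 fold change of the 8 was -0.30, beside -0.015 over all genes tested, and 6 of 8 were negative, beside 51.2% of all genes. In simulated data of this design over 15387 genes, edgeR called 16% of the genes given a 2-fold change and 82% of those given a 4-fold change, so changes under 2-fold were mostly beyond its reach.

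**Figure D3:**
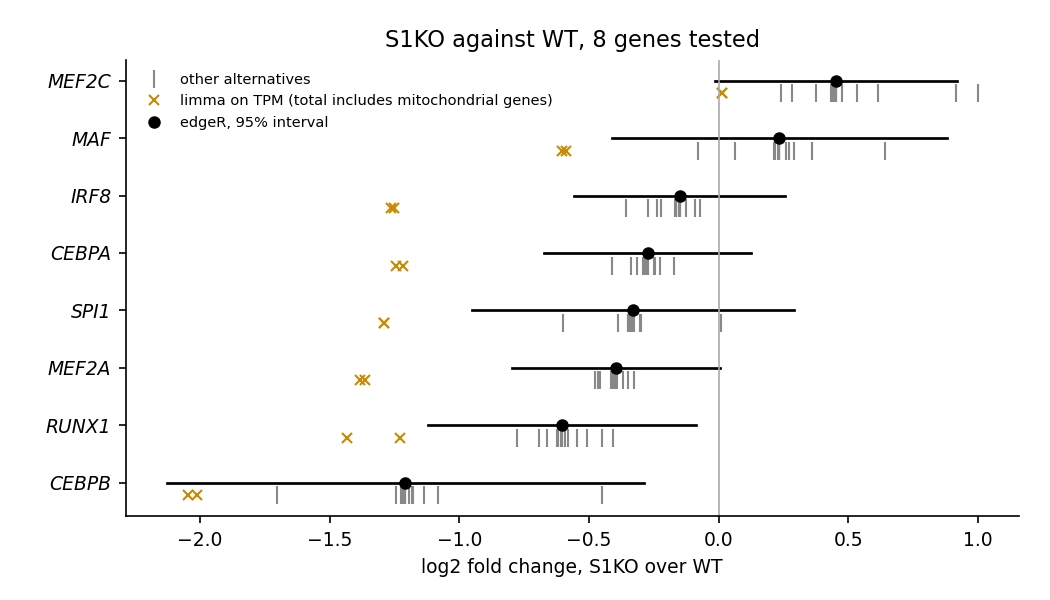
Log2 fold change of S1KO over WT (x axis) for the 8 factors tested, with the edgeR estimate and its 95% interval (black), the alternatives (grey ticks) and limma on TPM (crosses). The intervals of CEBPB and RUNX1 lie below 0, and the TPM scale, whose total includes mitochondrial genes, shifts every factor downwards relative to the edgeR estimate.

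SPI1 (ENSG00000066336, chromosome 11, 47354860 to 47378576 in GRCh38, minus strand) was at 699 and 685 CPM in S1KO, against 690.0 and 1050.4 CPM in WT. Only WT 2 was high, and the other 3 libraries were close to each other. SPI1 had a log2 fold change of -0.33 (SE 0.26, 95% interval -0.95 to 0.29, edgeR adjusted p = 0.53), and without WT 2 it was 0.0083. SPIB, its closest relative and a factor of B cells and plasmacytoid dendritic cells, held at most 0.59% of the summed TPM of SPI1, SPIB and SPIC in any library, and SPIC was listed at 0 in all 4. The likeness of other genes to SPI1 was measured as the root mean square difference of log2 CPM, centred over the 4 libraries, among 8623 protein-coding genes. CXXC5 (0.024), SLC37A2 (0.026) and NR1H2 (0.029) were closest, and 185 genes lay within 0.1, so with 4 libraries this pattern was common.

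A pair of SPI1 transcripts that differ by 3 coding bases carried most of its counts. They are shown because the choice between them adds or omits 1 codon of PU.1; capitals mark the bases that SPI1-201 has and SPI1-202 lacks (coding strand, 5′ to 3′, GENCODE 29 transcript sequences).
SPI1-201: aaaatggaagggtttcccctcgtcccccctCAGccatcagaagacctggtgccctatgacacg
SPI1-202: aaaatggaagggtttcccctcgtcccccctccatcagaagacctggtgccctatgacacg
SPI1-202 held 49.8% and 45.5% of SPI1 counts in S1KO, against 44.4% and 37.2% in WT, and SPI1-201 held 42.6% and 46.6% in S1KO, against 45.2% and 52.1% in WT. The shares of SPI1-201 overlapped between the genotypes. SPI1-204, with a different coding end, held 7.59% and 7.82% in S1KO, against 10.4% and 10.6% in WT.

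IRF8 (ENSG00000140968, chromosome 16, 85898803 to 85922609, plus strand), the interferon regulatory factor that pairs with PU.1, was at 213 and 192 CPM in S1KO, against 213 and 236 CPM in WT. S1KO 1 and WT 1 were almost equal. IRF8 had a log2 fold change of -0.15 (SE 0.17, 95% interval -0.56 to 0.26, edgeR adjusted p = 0.67). Its main transcript, IRF8-201, held 98.3% and 96.7% of IRF8 counts in S1KO, against 93.9% and 93.0% in WT. Its relatives IRF3 and IRF5, factors of interferon and inflammatory responses, were at like levels per length. IRF3 was at 53.8 and 93.5 TPM in S1KO, against 122 and 124 TPM in WT, and IRF5 was at 37.4 and 63.5 TPM in S1KO, against 127 and 132 TPM in WT. TPM was lower in S1KO without overlap for 71.0% of all genes tested, so these values do not show a fall of either gene. On counts, the DESeq2 log2 fold change was 0.07 for IRF3 (adjusted p = 0.90) and -0.29 for IRF5 (adjusted p = 0.40).

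RUNX1 (ENSG00000159216, chromosome 21, 34787801 to 36004667, minus strand), a factor needed to form definitive blood cells, was at 17.7 and 15.9 CPM in S1KO, against 28.8 and 22.2 CPM in WT. The groups did not overlap. RUNX1 had a log2 fold change of -0.61 (SE 0.21, 95% interval -1.12 to -0.09, unadjusted p = 0.028 and adjusted p = 0.204 in edgeR). It passed the threshold without WT 2 (-0.78, adjusted p = 0.0335), where the remaining WT library is assumed to vary like the S1KO group, and in no other alternative. RUNX3, a relative that guides lymphocytes and some macrophages, was the main RUNX gene in these cells, with 95.2% and 95.7% of the summed RUNX TPM in S1KO, against 93.1% and 95.9% in WT.

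RUNX1 has a distal and a proximal start, 160608 bases apart, that give proteins with different first residues. The first 120 coding bases of a transcript from each start are shown because the data differ between them; capitals mark bases that the other transcript does not code, and lower case the shared part.
RUNX1-207 (distal): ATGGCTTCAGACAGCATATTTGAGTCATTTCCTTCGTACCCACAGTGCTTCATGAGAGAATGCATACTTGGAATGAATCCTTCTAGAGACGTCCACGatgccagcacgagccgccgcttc
RUNX1-202 (proximal): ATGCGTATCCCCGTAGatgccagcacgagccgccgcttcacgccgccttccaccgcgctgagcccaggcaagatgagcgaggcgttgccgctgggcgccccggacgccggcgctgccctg
The 5 transcripts from the distal start had 22.4 and 13.2 estimated counts in S1KO, against 195 and 171 in WT. Their share of RUNX1 counts was 8.55% in S1KO 1 (95% Wilson interval 5.61 to 12.4) and 3.91% in S1KO 2 (2.26 to 6.47), against 24.3% in WT 1 (21.4 to 27.3) and 24.5% in WT 2 (21.5 to 27.9). Both WT libraries were high and alike, and both S1KO libraries lay below them by a mean of 18.1 percentage points. The proximal start held 80.4% and 84.2% in S1KO, against 68.2% and 66.8% in WT. An exact two-sided permutation test gave p = 0.333, the smallest that 2 against 2 libraries allow. A share that was lower in both S1KO libraries by at least 10 points on average was found for 11.7% of 18538 transcripts of all genes with enough counts. That share is over single transcripts; summed starts and larger shifts were not counted over all genes. RUNX1 had 262 and 338 counts in S1KO, and the intervals cover counting error only, not the division of shared reads among transcripts.

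The promoter at the proximal RUNX1 start is shown as the 250 bases before it (GRCh38.p14, RefSeq promoter table, chr21:34888700-34888949, minus strand, 5′ to 3′), with the letters of a PU.1-type motif, GAGGAA or its reverse complement, in capitals.
RUNX1 proximal promoter: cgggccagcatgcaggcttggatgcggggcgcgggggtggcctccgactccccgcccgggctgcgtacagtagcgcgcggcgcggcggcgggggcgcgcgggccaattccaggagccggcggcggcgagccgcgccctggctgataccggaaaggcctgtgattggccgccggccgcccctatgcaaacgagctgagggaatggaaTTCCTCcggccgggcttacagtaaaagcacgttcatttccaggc
Of the 9 factors, 7 had promoters in that table, with 17 windows of 250 bases in all. GAGGAA on either strand was in 6 of the 17 windows, and in 23.6% of all 35116 windows. Most of the 6 were at MEF2C, and the others at RUNX1 and MEF2A, so windows are not separate genes. A match is a description of letters and not evidence of binding. The RUNX motif TGTGGT was in 1 of the 17 windows, at IRF8, and in 10.98% of all windows. The IRF8 windows began at bases 85902580 and 85902765, downstream of the start of IRF8-201 at 85898803. They are therefore not the promoter of the main IRF8 transcript, which was not searched. RUNX1 had a window only at its proximal start, so the promoter of the distal start was not searched either.

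CEBPA (ENSG00000245848, chromosome 19, 33299934 to 33302564, minus strand), needed for granulocyte and monocyte precursors, was at 107 and 90.5 CPM in S1KO, against 116 and 123 CPM in WT. Both S1KO libraries were lower, by a log2 fold change of -0.27 (SE 0.17, 95% interval -0.67 to 0.12, edgeR adjusted p = 0.415). CEBPB (ENSG00000172216, chromosome 20, 50190734 to 50192689, plus strand), the C/EBP factor of inflammatory and acute phase responses, was at 72.1 and 74.3 CPM in S1KO, against 100.3 CPM in WT 1 and 238 CPM in WT 2. The S1KO libraries were alike and lower than both WT libraries, which differed from each other by 1.25 on the log2 scale. The log2 fold change was -1.21 (SE 0.38, 95% interval -2.13 to -0.29, unadjusted p = 0.0177 and adjusted p = 0.173 in edgeR), the largest in size among the 8. DESeq2 called it lower (-1.22, adjusted p = 0.018), as did edgeR with no filter on low counts (adjusted p = 0.00707). The size rested on WT 2: the log2 fold change was -1.70 without WT 1 (adjusted p = 2.27e-09) and -0.45 without WT 2 (adjusted p = 0.168), with the lone WT library assumed to vary like the S1KO group.

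Within the C/EBP family CEBPD and DDIT3 were also highest in WT 2, while CEBPE and CEBPG were not and CEBPA differed little between the WT libraries. CEBPD, another inflammatory C/EBP factor, was at 42.7 and 40.3 CPM in S1KO, against 45.1 CPM in WT 1 and 119 CPM in WT 2 (log2 fold change -0.98, edgeR adjusted p = 0.268). The genes closest to CEBPB in pattern were MPZL2 (0.058), HLA-DPA1 (0.068) and FUT7 (0.086), by the measure used for SPI1, and 4 genes lay within 0.1. HLA-DPA1, an MHC class II chain, was at 410.0 and 450.4 CPM in S1KO, against 538 CPM in WT 1 and 1301 CPM in WT 2. The ratio of CEBPB to CEBPA counts within a library, which does not depend on scaling, was 0.67 and 0.82 in S1KO, against 0.86 and 1.93 in WT.

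MEF2A (ENSG00000068305, chromosome 15, 99565417 to 99716466, plus strand), a MADS-box factor, was at 185 and 199 CPM in S1KO, against 242 and 264 CPM in WT. Both S1KO libraries were lower, and the libraries of each genotype were close to each other. MEF2A had a log2 fold change of -0.39 (SE 0.17, 95% interval -0.80 to 0.01, edgeR adjusted p = 0.263). Limma on log2(TPM + 1) called it lower (-1.36, adjusted p = 0.0359), on a scale where the median of all genes was at -0.78. Its transcripts divided unevenly between libraries: MEF2A-205 held 0.16% and 17.1% of MEF2A counts in S1KO, against 7.66% and 17.3% in WT. MEF2A-201 held 46.7% and 15.5% in S1KO, against 25.5% and 16.6% in WT. S1KO 1 differed from S1KO 2 in both, and the genotypes overlapped. MEF2A-203 was lower in S1KO without overlap, at 18.5% and 30.1% in S1KO, against 33.2% and 36.6% in WT. MEF2A-202 was higher without overlap, at 29.5% and 32.3% in S1KO, against 27.7% and 23.7% in WT.

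MEF2C (ENSG00000081189, chromosome 5, 88717117 to 88904257, minus strand), the MEF2 factor most associated with microglia, was at 240.1 and 184 CPM in S1KO, against 147 and 163 CPM in WT. The groups did not overlap. MEF2C had a log2 fold change of 0.45 (SE 0.19, 95% interval -0.02 to 0.92, edgeR adjusted p = 0.272). With an offset for effective length it was 0.999 (adjusted p = 0.111), with protein-coding transcripts only 0.28 (adjusted p = 0.495), and on log2(TPM + 1) 0.013 (adjusted p = 0.984).

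MEF2C also differed in its transcripts. MEF2C-219, a transcript of 689 bases annotated as retaining an intron, had 604 and 667 estimated counts in S1KO, against 282 and 345 in WT. Its share of MEF2C counts was 17.0% in S1KO 1 (95% Wilson interval 15.8 to 18.2) and 17.0% in S1KO 2 (15.9 to 18.2), against 6.85% in WT 1 (6.13 to 7.68) and 6.73% in WT 2 (6.08 to 7.46). Libraries of one genotype were almost equal, and the genotypes were 10.2 percentage points apart. The retained-intron share was higher in both S1KO libraries for 15.1% of 4810 genes with such transcripts and lower in both for 37.1%. The stretch where MEF2C-219 leaves the exons of coding MEF2C transcripts is shown because it is what sets this transcript apart (chr5:88804538-88804627 in GRCh38, minus strand, 5′ to 3′); capitals mark intron.
MEF2C-219: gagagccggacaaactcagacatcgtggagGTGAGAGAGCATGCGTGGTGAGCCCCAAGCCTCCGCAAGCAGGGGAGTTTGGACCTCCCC
Of its 689 bases, 72 lie outside the exons of the coding transcripts, so most of its reads could also have come from those transcripts. Being short, it held 34.8% and 36.4% of MEF2C TPM in S1KO, against 25.0% and 17.8% in WT. Among coding transcripts, MEF2C-249 held 8.52% and 5.95% of counts in S1KO, against 21.7% and 17.9% in WT. MEF2C-213 held 10.4% and 12.9% in S1KO, against 2.84% and 1.90% in WT. Over 6 factors, 19 transcripts had at least 10% of a gene's counts; S1KO was lower without overlap for 7 of them, beside 25.2% of all such transcripts, and higher for 8, beside 26.7%. With 56 MEF2C transcripts quantified, the division of reads among them is an estimate.

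**Figure D4:**
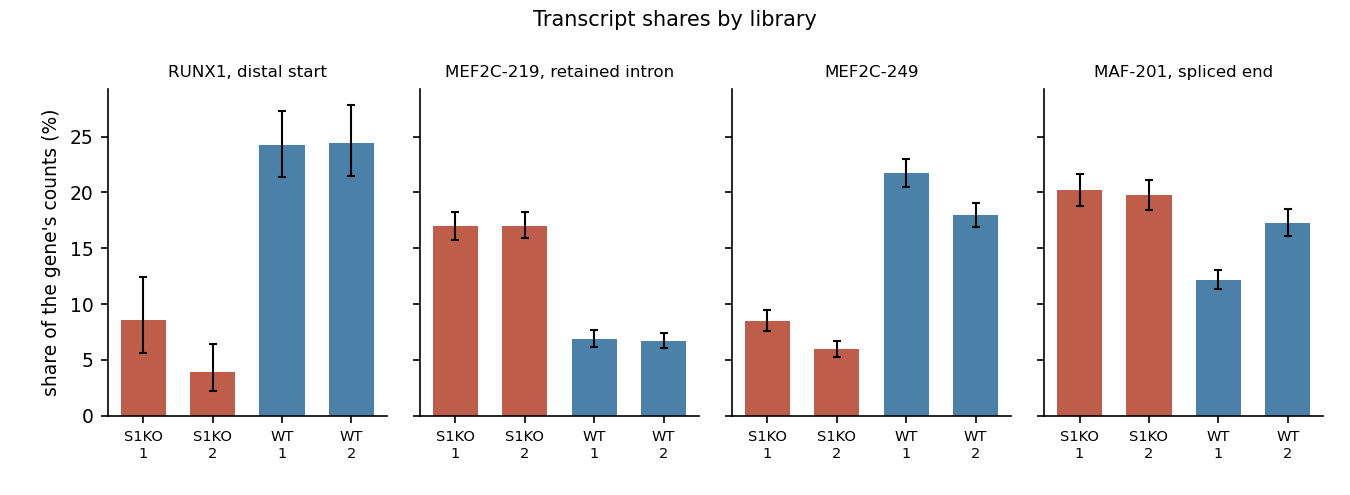
Share of the counts of RUNX1, MEF2C or MAF (y axis, %) held by the transcripts named above each panel, in S1KO 1, S1KO 2, WT 1 and WT 2; error bars are 95% Wilson intervals for counting error only. The distal RUNX1 start and MEF2C-249 are lower in both S1KO libraries, and MEF2C-219 and MAF-201 are higher in both.

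SALL1 (ENSG00000103449, chromosome 16, 51135975 to 51151367, minus strand), the zinc finger repressor that distinguishes microglia from other macrophages in mice, was not detected in S1KO at this depth. It had 0 counts in both S1KO libraries and in WT 2, and 5 counts in WT 1, the library with mesenchymal transcripts. A count of 0 allows up to 0.202 CPM in S1KO 1, 0.141 CPM in S1KO 2 and 0.0958 CPM in WT 2, taking 3 counts as the limit, while the 5 counts of WT 1 came to 0.179 CPM. It did not pass the filter and was not tested. SALL4, a relative of stem and germ cells, was at 2.56 and 2.82 CPM in S1KO, against 2.68 CPM in WT 1 and 20.0 CPM in WT 2 (log2 fold change -2.08, edgeR adjusted p = 0.253).

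MAF (ENSG00000178573, chromosome 16, 79585843 to 79600714, minus strand), a large MAF factor of resident macrophages, was at 204 and 165 CPM in S1KO, against 195 and 118 CPM in WT. The groups overlapped. The log2 fold change was 0.23 (SE 0.27, 95% interval -0.41 to 0.88, edgeR adjusted p = 0.675); it was -0.08 without WT 2. On log2(TPM + 1), where the median of all genes was -0.78, it was -0.59, and it was 0.29 once mitochondrial genes were left out of the TPM total. MAF is made as a long single-exon transcript, MAF-202, or as MAF-201, which is spliced to a further exon and codes a longer end. The last 120 coding bases of each are shown, with capitals for bases that the other does not code.
MAF-201: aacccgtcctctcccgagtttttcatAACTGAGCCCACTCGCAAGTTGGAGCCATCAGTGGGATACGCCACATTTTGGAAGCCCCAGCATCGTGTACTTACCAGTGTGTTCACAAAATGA
MAF-202: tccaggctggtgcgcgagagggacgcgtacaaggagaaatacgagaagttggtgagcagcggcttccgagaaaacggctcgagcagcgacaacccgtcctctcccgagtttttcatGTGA
MAF-201 held 20.2% and 19.8% of MAF counts in S1KO, against 12.2% and 17.3% in WT. The S1KO shares were alike and both above WT, by a mean of 5.24 percentage points, and the WT libraries differed from each other by about as much. A share higher in both S1KO libraries was found for 26.7% of 18538 transcripts of all genes with enough counts.

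The ratio of MEF2C to MEF2A counts was 1.297 and 0.92 in S1KO, against 0.61 and 0.62 in WT, and with protein-coding transcripts only 1.12 and 0.79 in S1KO, against 0.59 and 0.59 in WT. The ratio of RUNX3 to RUNX1 counts was 29.3 and 32.1 in S1KO, against 14.2 and 28.0 in WT. Both ratios were higher in both S1KO libraries, and exact two-sided permutation tests gave p = 0.333, the smallest that 2 against 2 libraries allow. For RUNX3 to RUNX1, WT 2 lay close to S1KO 1, and only WT 1 was far below. How often other gene pairs separate in this way was not counted. The pairs were picked after their values were seen.

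**Figure D5:**
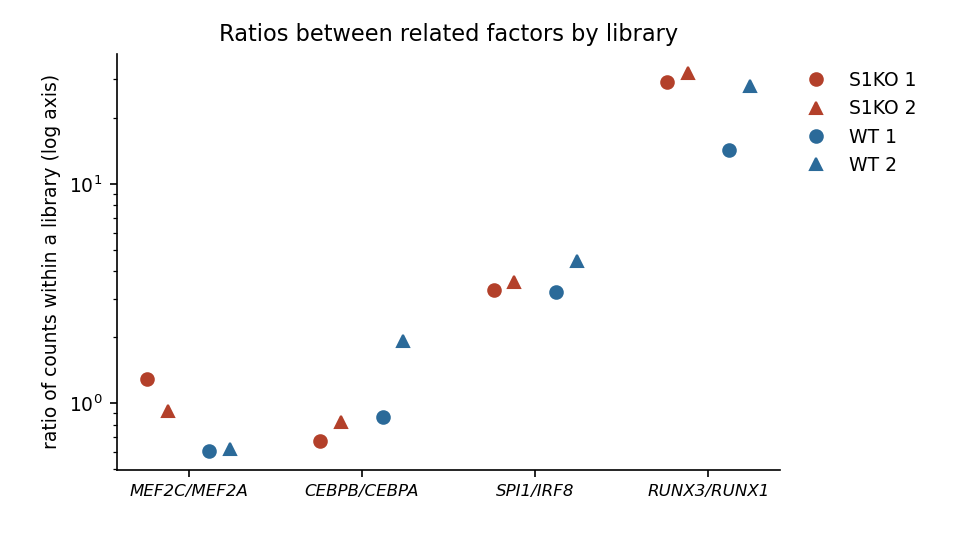
Ratio of the counts of 2 related factors within each library (y axis, log), which no scaling between libraries can change. MEF2C/MEF2A and RUNX3/RUNX1 are higher in S1KO without overlap, CEBPB/CEBPA is lower, and SPI1/IRF8 overlaps.

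Of the relatives of these factors, MAFK, a small MAF protein, was at 32.8 and 30.5 CPM in S1KO, against 38.9 and 54.2 CPM in WT (log2 fold change -0.56, edgeR adjusted p = 0.225). SPIB was at 2.83 and 3.902 CPM in S1KO, against 1.04 and 1.85 CPM in WT (log2 fold change 1.22, edgeR adjusted p = 0.238). Of 28 cofactors and regulators, 26 were tested and none passed in edgeR, with 3 at an unadjusted p under 0.05 (19.5% of all genes) and 3 called by DESeq2 (7.71% of all genes). NCOR1, a nuclear corepressor, was at 269 and 245 CPM in S1KO, against 124 and 134 CPM in WT (log2 fold change 0.99, edgeR adjusted p = 0.0593). On log2(TPM + 1) it was at -0.03, where the median of all genes was -0.78, and at 0.87 once mitochondrial genes were left out of the TPM total. MAPK7, a kinase that activates MEF2 factors, had a log2 fold change of -1.15 (edgeR adjusted p = 0.108), and TRIB2, which drives breakdown of C/EBP alpha, of -1.16 (edgeR adjusted p = 0.108). JUNB, an AP-1 subunit, was at 154 and 195 CPM in S1KO, against 175 CPM in WT 1 and 491 CPM in WT 2.

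Of 40 other myeloid and blood transcription factors, 36 were tested and none passed in edgeR, with 11 at an unadjusted p under 0.05 and 3 called by DESeq2, beside the same 19.5% and 7.71% of all genes. The median log2 fold change of the 36 was -0.18, and 23 were negative. NR1H3, the oxysterol receptor LXR alpha, was at 33.0 and 27.8 CPM in S1KO, against 5.15 and 10.9 CPM in WT (log2 fold change 1.91, edgeR adjusted p = 0.0799), and passed in 6 of 18 alternatives. ZEB2, a zinc finger repressor of myeloid cells, was at 257 and 193 CPM in S1KO, against 64.7 and 96.4 CPM in WT (1.48, edgeR adjusted p = 0.0612). With protein-coding transcripts only ZEB2 was at -2.19 (edgeR adjusted p = 0.137), and with an offset for effective length at 0.20 (edgeR adjusted p = 0.783). The higher level of ZEB2 was thus found in counts summed over all its transcripts, and not in its protein-coding transcripts alone. The 2 alternatives depend on how its reads were divided among transcripts, which is an estimate. KLF2, a zinc finger factor, had a log2 fold change of -1.63 (edgeR adjusted p = 0.124), and MYB, the factor of blood progenitors, of 1.76 (edgeR adjusted p = 0.164) from under 4 CPM in every library.

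Genes that are known targets of these factors, or are only associated with them, were read in 4 lists. Of 22 PU.1 and IRF8 targets, none passed in edgeR, with 10 at an unadjusted p under 0.05, beside 19.5% of all genes. DESeq2 called 6 of the 22 lower, beside 3.5% of all genes. Their median log2 fold change was -0.36, and 16 were negative. FCER1G, the Fc receptor gamma chain, was at 117 and 123 CPM in S1KO, against 239 and 227 CPM in WT (log2 fold change -0.95, edgeR adjusted p = 0.0593). FCGR1A (-1.45, adjusted p = 0.101), an Fc receptor, MS4A6A (-0.63, adjusted p = 0.142) and PTPRC (-0.74, adjusted p = 0.147), the pan-leukocyte phosphatase, followed in edgeR. Of 14 genes associated with SALL1 and MEF2 in microglia, 13 were tested and 2 fell, where 0.149% of all genes did. Their median log2 fold change was -0.52, and 8 were negative. ADGRG1, an adhesion receptor, was at 9.23 and 10.6 CPM in S1KO, against 27.3 and 28.3 CPM in WT (-1.48, edgeR adjusted p = 0.0405). P2RY12, the ADP receptor, was at 11.5 and 12.1 CPM in S1KO, against 36.6 and 27.8 CPM in WT (-1.45, edgeR adjusted p = 0.0486). P2RY13 (-0.85, adjusted p = 0.1), a related receptor, and TGFBR1 (-0.68, adjusted p = 0.106), a TGF beta receptor, did not pass in edgeR. The calls of ADGRG1 and P2RY12 held in 13 and 10 of 18 alternatives and were lost without S1KO 1 (adjusted p = 0.684 each) and without S1KO 2 (0.388 and 0.438).

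Of 14 MAF-associated macrophage genes, 13 were tested and none passed in edgeR, with 6 at an unadjusted p under 0.05 and 3 called by DESeq2, beside 19.5% and 7.71% of all genes. The list was split: the C1q chains C1QA (-0.89, adjusted p = 0.158), C1QB (-0.78, adjusted p = 0.202) and C1QC (-0.85, adjusted p = 0.150) had negative fold changes in edgeR. SELENOP, a selenium carrier, was at 41.3 and 18.7 CPM in S1KO, against 14.7 and 5.14 CPM in WT (1.60, edgeR adjusted p = 0.204). The median of the 13 was 0.17, and 6 were negative. Of 18 C/EBP targets, 12 were tested and 1, FCN1, rose, where 0.793% of all genes did. Their median log2 fold change was -0.67, and 8 were negative; 5 of 12 had an unadjusted p under 0.05, beside 19.5% of all genes. FCN1, a monocyte ficolin, was at 9.91 and 7.90 CPM in S1KO, against 1.47 and 1.09 CPM in WT (2.80, SE 0.37, edgeR adjusted p = 0.0405); it passed in 10 of 17 alternatives and not without S1KO 1 (adjusted p = 0.684) or S1KO 2 (0.388). IL1B, an inflammatory cytokine, was at 118 and 125 CPM in S1KO, against 207 and 419 CPM in WT (-1.36, edgeR adjusted p = 0.107, called by DESeq2). CXCL8, a neutrophil chemokine, was at 18.1 and 20.6 CPM in S1KO, against 15.2 CPM in WT 1 and 199 CPM in WT 2. TREM1 (-2.25, adjusted p = 0.232), a receptor of activated myeloid cells, and CSF3R (-0.54, adjusted p = 0.234), the G-CSF receptor, did not pass in edgeR. CSF3R was at 144 and 204 CPM in S1KO, against 256 and 251 CPM in WT, while the 8 other granulocyte markers summed to 2.56 and 2.30 CPM in S1KO, against 1.07 and 1.31 CPM in WT. In these 4 lists the summed microglia marker level, given above, was also lower in both S1KO libraries, and fewer cells of a type cannot be told apart from less RNA per cell.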

How the data were processed

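The submitters' processing notes name kallisto and hg38 for the 4 poly-A selected libraries; the sources used here give neither a version nor a transcript set. Each deposited table lists, per the file headers, every transcript with its estimated count and its TPM. An estimated count includes a share of reads common to several transcripts. TPM is scaled to transcript length, and its total includes mitochondrial transcripts. Transcripts were summed to genes with GENCODE 29 (GRCh38): 169797 by identifier and 15521 by symbol, while 3435 were left out (0.323% to 0.643% of a library's counts). Sums were rounded, filtered with filterByExpr (15387 genes kept), scaled by TMM and tested with edgeR 4.0.16 (quasi-likelihood, genotype only, two-sided, Benjamini-Hochberg at 0.05) in R 4.3.3; DESeq2 1.42.0 and limma 3.58.1 were alternatives. CPM levels were TMM-scaled, with no prior count added. Limma used log2(TPM + 1) and log2(TPM + 0.1). The script was tested on simulated data. No library duplicated another: at least 263 genes lay more than 4-fold apart in every pair. None of 21 noncoding neighbours listed was among the transcripts used here, and strand is not stated. CEBPB-AS1, MEF2C-AS1 and MEF2C-AS2, which overlap CEBPB and MEF2C on the opposite strand, therefore cannot be told apart from them. The same holds for antisense genes across CEBPA (AC008738.3 and AC008738.5) and SALL1 (AC009166.1), which were also absent from those transcripts. Members and lists were chosen with earlier results of these data known. Some genes of the list of family relatives are not reported here. Genes named were the members, INPP5D, up to 4 of smallest p in each list with all that passed, family relatives and genes of like pattern; of transcripts, those with at least 10% of a member's counts in a library. CXCL8 and TMEM119 were named after their values were seen.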

Additional observations from a re-analysis of the deposited data

How the results depend on the processing

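No factor was called by edgeR on all libraries, and this depended on the method and on the WT libraries. DESeq2, edgeR with no filter and edgeR without WT 1 called 1 factor each (CEBPB), edgeR without WT 2 called 1 (RUNX1), and limma on log2(TPM + 1) or log2(TPM + 0.1) called 2 (CEBPB and MEF2A); the range with 1 library left out was 0 to 1. Of all genes, 145 passed. The count was 1149 with DESeq2, 1361 with no filter, 224 with a stricter filter, 304 with robust empirical Bayes, 21 with protein-coding transcripts only, 2896 and 2641 with limma on log2(TPM + 1) and log2(TPM + 0.1), and 0 to 2140 with 1 library left out (0 without S1KO 1 and without S1KO 2, with 1174 and 1642 at an unadjusted p under 0.05). With the replicate number as a block 0 genes and 0 factors passed. The deviations of same-numbered libraries correlated at 0.025. That value rests on a single contrast within each genotype, so it cannot decide whether same-numbered libraries were made together. Signs turned for SPI1 without WT 2 (0.0083; -0.60 to 0.0083 with 1 library left out), for MAF without WT 2 (-0.081; -0.081 to 0.64) and on log2(TPM + 1) (-0.59) and log2(TPM + 0.1) (-0.61), for NCOR1 (-0.032 and -0.033) and ZEB2 (-0.72 and -0.74) on these TPM scales, which shift all genes downwards, and for ZEB2 with protein-coding transcripts only (-2.19). The median of all genes was -0.78 and -0.97 on the TPM scales, against -0.015 in edgeR, and -0.085 on log2(TPM + 1) once mitochondrial genes were left out of the TPM total, where MAF (0.29), NCOR1 (0.87) and ZEB2 (0.16) were positive again; other causes were not tested. IRF8, CEBPA and MEF2C were called in none of their 18 alternatives. Depth limits what can be said of SALL1, with 5 counts in all, and of the RUNX1 transcripts.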
